A study of Rattus norvegicus with 9 samples.

Results

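This section describes 166 transcripts of PC12 cells that stood lower with erastin than in untreated cells and higher than in untreated cells when PQR NPs were given with erastin. They were 166 of the 41078 transcripts in the table, of which 15951 had no counts in any library. All 9 libraries came from wild-type PC12 cells, a rat tumour line of adrenal chromaffin cells often taken as a stand-in for neurons. Each of 3 groups had 3 libraries: untreated controls, cells treated with Erastin, and cells treated with Erastin+PQR NPs, here called co-treated. The series uses erastin to set up a model of PD, does not state the composition of the particles in the labels, and gives no dose or time in the sources used here. No group given PQR NPs without erastin was analysed here, so an effect of the particles alone and an effect that needs erastin cannot be told apart.

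The members were selected on the measured values of all 9 libraries, in CPM (a transcript's counts divided by the library's total and brought to a common scale). A member had a co-treated mean of at least 5 CPM and a mean over the 9 libraries under 1000 CPM. The 5 CPM minimum was met by 11195 transcripts. The log2 ratio of the erastin mean to the control mean, with 0.5 CPM added to both, was at most -0.41, and that of the co-treated mean to the control mean was at least 0.41. The lowest control library had to lie above the highest erastin library, and the lowest co-treated library above the highest control library. The pattern of lower with erastin and higher than control under co-treatment is therefore what chose the members and is no finding, and the values below describe it. The rule used each of the 3 contrasts and each library, so no replicate or readout was left for a test of the members.

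Erastin blocks the antiporter through which cells import cystine in exchange for glutamate. Cystine supplies the cysteine for glutathione, which the peroxidase GPX4 uses to reduce lipid peroxides, and cells short of it can die by ferroptosis, a death driven by iron and the peroxidation of membrane lipids. Dopamine-making cells such as PC12 carry a load of oxidizable catecholamines and iron, one reason why ferroptosis is studied in models of Parkinson's disease. This is background, and which of its genes the members come from is not known here: the table lists Ensembl rat transcripts without symbols, and the gene table used here paired none of the members with a gene (0 of 166). Members are therefore called by their abundance rank among the 166 (rank 1 has the highest mean CPM over the 9 libraries), and 4 are given by ID. The chromaffin identity of the cells could not be checked against marker genes for the same reason.

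The libraries held 34772755 to 40826754 counts, and 17123 transcripts passed edgeR's filter on low counts, all 166 members among them. No member had a count of 0 in any library. The lowest count of a member was 62 in the control libraries, 7 in the erastin libraries and 184 in the co-treated libraries. Whether replicates are separate cultures is not stated in the labels, so their spread may be technical. In bulk RNA, fewer cells that express a transcript and less of it per cell cannot be told apart.

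As a group the members were a small part of the RNA, and that part was ordered by treatment in every library. They took 0.755%, 0.716% and 0.674% of the counts in control replicates 1, 2 and 3. With erastin they took 0.440%, 0.403% and 0.396%, and under co-treatment 1.13%, 1.14% and 1.09%. The 3 groups did not overlap, which the rule fixes. The mean share was 0.715% ± 0.0403 for controls, 0.413% ± 0.0240 for erastin and 1.12% ± 0.0261 for the co-treated libraries (SD, n = 3 each). Much of this lay in few transcripts: the 10 most abundant members held 35.4% of the members' summed mean CPM, and the 20 most abundant 50.8%.

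**Figure D1:**
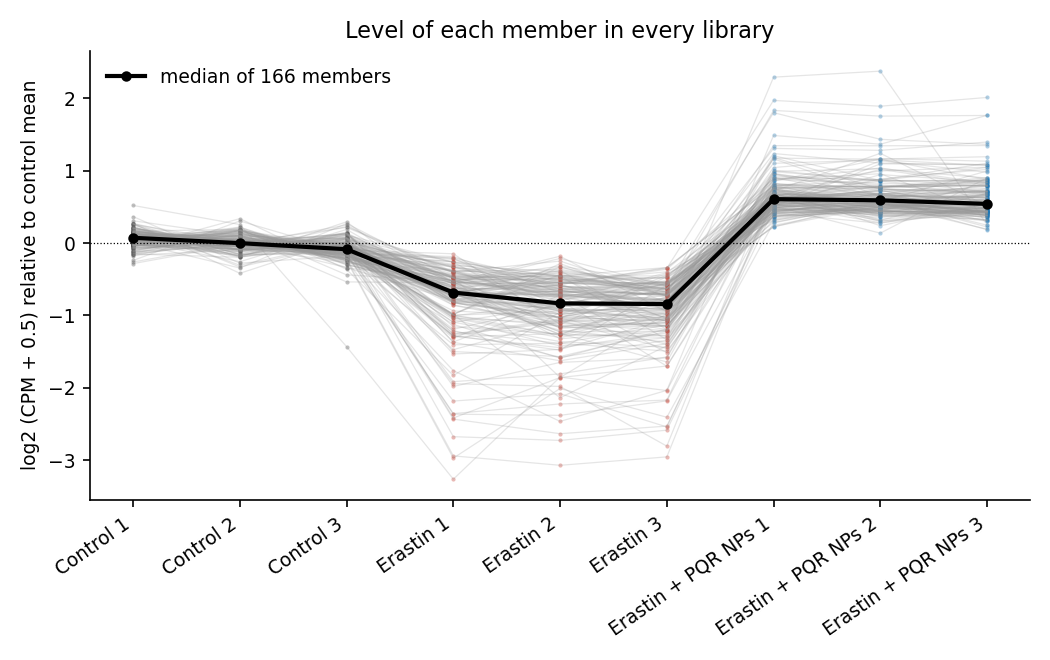
Level of each of the 166 members in the 9 libraries, as log2 of CPM + 0.5 relative to the member's control mean. Grey lines are members, coloured points are their values by group, and the black line joins the medians. The erastin points lie below and the co-treated points above the controls, as the rule requires, while the depth below control spreads more widely than the height above it.

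Loss with erastin and excess under co-treatment varied widely in size among the members. The erastin mean was a median 0.567 of the control mean (interquartile range 0.476 to 0.659, lowest 0.0746). The co-treated mean was a median 1.51-fold above control (interquartile range 1.41 to 1.71, highest 4.14). Between the treatments the co-treated mean was a median 2.87-fold above the erastin mean, with a range of 1.86 to 20.8. On the log2 scale the member medians were -0.77, 0.58 and 1.44, and over all 17123 transcripts tested they were 0.01, 0.02 and 0.04. Counted by size, 15 members were 2-fold or more above control under co-treatment, 75 were 1.5 to 2-fold above it and 76 less than 1.5-fold. Relative to erastin, control was 2-fold or more higher for 52 members, of which 13 reached 4-fold, and under 1.5-fold higher for 39. Both sizes were at or above 2-fold in 4 members. In CPM, the excess over control was larger than the loss with erastin in 117 of the 166.

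The edgeR fit over all transcripts separated the members less evenly than the rule did. In the comparison of erastin with control, 157 of 166 members were called lower at an adjusted p under 0.05, where 26.3% of all tested transcripts were. In that of the co-treatment with erastin, 166 of 166 were called higher, where 25.3% of all were. Against control, 104 of 166 were called higher under co-treatment, where 7.7% of all tested transcripts were. As the rule used all 3 contrasts, these counts say nothing further about the members, except that 62 of the 166 were above control without being called so. Of those members 2-fold or more above control 15 of 15 were called, of those 1.5 to 2-fold above it 54 of 75, and of those less than 1.5-fold above it 35 of 76. Leaving out control replicate 2 lowered the count of 104 to 57, leaving out co-treated replicate 2 lowered it to 47, and an adjusted p of 0.01 to 39.

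Members were a minority among the transcripts that were lower with erastin. With a control mean of at least 5 CPM as the floor, 3559 transcripts under 1000 CPM met the erastin conditions of the rule. Under co-treatment 2566 of these (72.1%) were within 0.41 of control on the log2 scale, and 837 (23.5%) were below control by at least that much. Another 149 (4.19%) met the rule, and 7 were above control by the fold but with overlapping libraries. The other 17 members had control means under 5 CPM. The median log2 ratio of erastin to control was -0.75 for the 149, -0.79 for those within 0.41 of control and -1.20 for those below it. The median control mean was 22.5 CPM for the 149, against 50.1 and 40.3 CPM for these other classes. These classes share their control libraries with the ratios that define them, so they are described and not tested. The mirror rule, for transcripts above control with erastin and below it under co-treatment, was met by 202 transcripts.

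**Figure D2:**
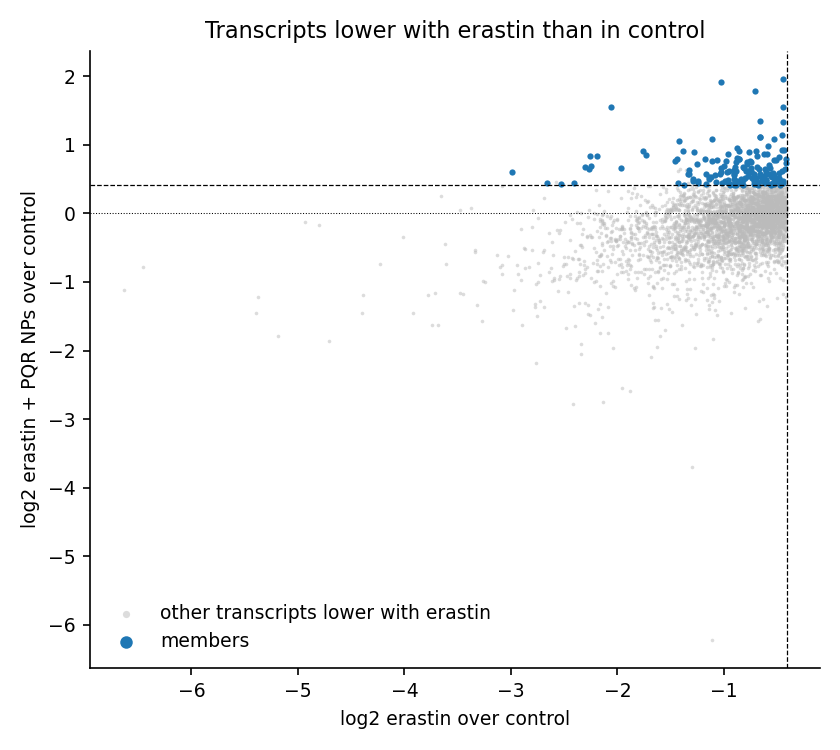
Log2 ratio to control with erastin (horizontal) and with erastin plus PQR NPs (vertical) for the 3559 transcripts lower with erastin and the 17 members with control means under 5 CPM. Both axes share the control libraries, and dashed lines mark the thresholds of -0.41 and 0.41. The 166 members are the blue points above the horizontal threshold, and most other transcripts lie near or below the dotted line at 0.

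The thresholds cut through a continuous range. Just inside the upper fold threshold lay members at log2 ratios of 0.4101 and 0.4106 to control under co-treatment, and just outside it transcripts at 0.409 and 0.406. Just inside the threshold on erastin lay members at -0.414 and -0.418, and just outside it transcripts at -0.409 and -0.405. Failing only the upper fold condition were 365 transcripts, and failing only the erastin fold condition were 65. Failing only the condition on overlap of co-treated with control libraries were 13 transcripts, and failing only that of control with erastin libraries were 22. With both of these conditions dropped, 241 transcripts met the rest of the rule. At the overlap threshold of the first kind, the lowest co-treated library was 1.00 and 1.02 times the highest control library just inside, and 0.974 and 0.950 times it just outside. At that of the second kind, the lowest control library was 1.01 and 1.03 times the highest erastin library just inside and 0.985 and 0.983 times it just outside. Co-treated means just inside the 5 CPM minimum were 5.07 and 5.21 CPM, and just outside it 4.69 and 4.19 CPM. A single transcript failed only the upper limit on abundance: it had 2460 CPM in controls, 1843 CPM with erastin and 3693 CPM under co-treatment, and the most abundant member lay well inside the limit.

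Most members were of middle abundance. By their mean over the 9 libraries, 43 were under 10 CPM, 106 were between 10 and 100 CPM and 17 were at 100 CPM or more. The median group means were 19.5 CPM in controls, 10.9 CPM with erastin and 31.4 CPM under co-treatment. The size of the excess was similar across abundance: the median co-treated mean was 1.55-fold, 1.51-fold and 1.45-fold above control in the 3 classes, from the least to the most abundant. Distance from erastin was larger in the least abundant class, with medians of 1.98-fold, 1.68-fold and 1.68-fold between control and erastin. Both sets of folds are without the 0.5 CPM that the rule adds. With it, a scarce transcript needs a larger fold to be a member, so the rule may set part of these differences.

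**Figure D3:**
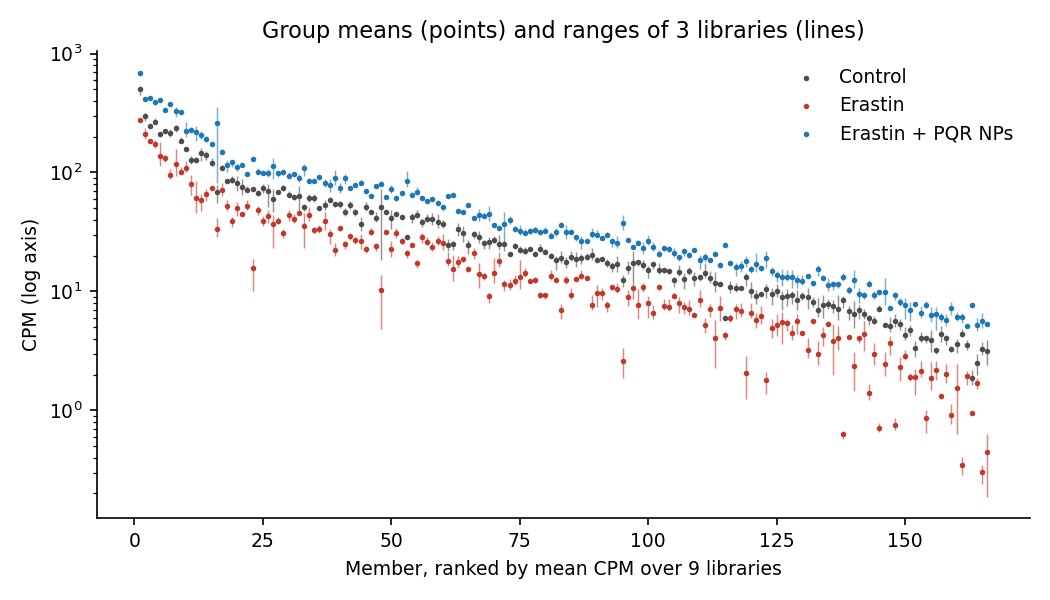
CPM of the 166 members on a log axis, ordered by abundance rank. Points are group means and vertical lines span the 3 libraries of a group. The 3 groups run nearly parallel from rank 1 to rank 166, with single erastin means far below the rest, among them ranks 23, 48 and 95, and a long co-treated line at rank 16.

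The 10 most abundant members differed from control by less than 2-fold under co-treatment. The rank 1 member had 524, 538 and 448 CPM in control replicates 1 to 3, 288, 283 and 266 CPM with erastin and 672, 700 and 681 CPM under co-treatment. Its co-treated mean was 1.36-fold above control, close to the least the rule admits. The rank 3 member was more even, with 240, 250 and 242 CPM in controls, 177, 178 and 193 CPM with erastin and 424, 418 and 422 CPM under co-treatment. It was only 1.34-fold lower with erastin, but 1.73-fold above control under co-treatment. The rank 5 member had the largest excess of the 10: it had 218, 211 and 198 CPM in controls, 180, 114 and 122 CPM with erastin, and 416, 426 and 390 CPM under co-treatment, 1.97-fold above control. One of its erastin libraries stood apart from the other two, nearer to the controls. The rank 7 member had the widest swing of the 10, from 232, 214 and 198 CPM in controls to 108, 88.5 and 88.4 CPM with erastin and 365, 372 and 385 CPM under co-treatment. Its co-treated mean was 3.94-fold above its erastin mean. Over the 10, control was 1.34-fold to 2.26-fold above erastin and the co-treatment 1.36-fold to 1.97-fold above control, and 9 of the 10 were called higher than control in the edgeR fit. The exception, rank 8, had 249, 238 and 217 CPM in controls and 293, 332 and 353 CPM under co-treatment.

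The 2 members with the largest log2 ratio of co-treatment to control, with 0.5 CPM added to both means, are given by ID. ENSRNOT00000000792, rank 115, had 222, 243 and 220 counts in the control libraries, 160, 137 and 159 with erastin and 977, 959 and 1004 under co-treatment. This was 5.96 ± 0.228 CPM in controls, 4.26 ± 0.331 CPM with erastin and 24.7 ± 1.07 CPM under co-treatment (SD, n = 3 each). It stood 4.14-fold above control under co-treatment, with all 3 libraries alike, although it was just 1.40-fold lower with erastin. ENSRNOT00000079005, rank 16, had 70.4, 78.5 and 55.7 CPM in controls and 41.8, 28.8 and 29.0 CPM with erastin, a 2.05-fold loss that was not called (edgeR adjusted p 0.0959). The fit estimates the spread over all 3 groups together, so the uneven co-treated libraries of this transcript enter that p as well. Under co-treatment the transcript had 337, 357 and 81.4 CPM. Its mean, 3.78-fold above control, thus rested on 2 of the 3 libraries, and co-treated replicate 3 lay just above the highest control. That spread, 258 ± 153 CPM (SD, n = 3), was the widest among the members in the co-treated group. How its reads were assigned among transcripts in each library was not tested.

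Among the other members 2-fold or more above control, the rank 163 member had 1.79, 2.17 and 1.62 CPM in controls, 0.942, 0.943 and 0.949 CPM with erastin and 7.92, 7.47 and 7.52 CPM under co-treatment. At 4.10-fold above control it came between ENSRNOT00000000792 and ENSRNOT00000079005 by the ratio of means without the added 0.5 CPM, on counts of 33 to 35 in the erastin libraries. The rank 95 member joined a deep loss to a large excess: it had 13.6, 13.1 and 10.8 CPM in controls, 3.34, 1.86 and 2.67 CPM with erastin and 36.0, 33.1 and 43.8 CPM under co-treatment. It was 4.77-fold lower with erastin and 3.01-fold above control under co-treatment, the one member past 4-fold in the first and 2-fold in the second. The rank 53 member had 27.5, 29.5 and 29.7 CPM in controls, 21.9, 22.3 and 18.9 CPM with erastin and 102, 78.9 and 75.2 CPM under co-treatment. Of the 15 members 2-fold or more above control, 11 were called lower with erastin and 4 were not.

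**Figure D4:**
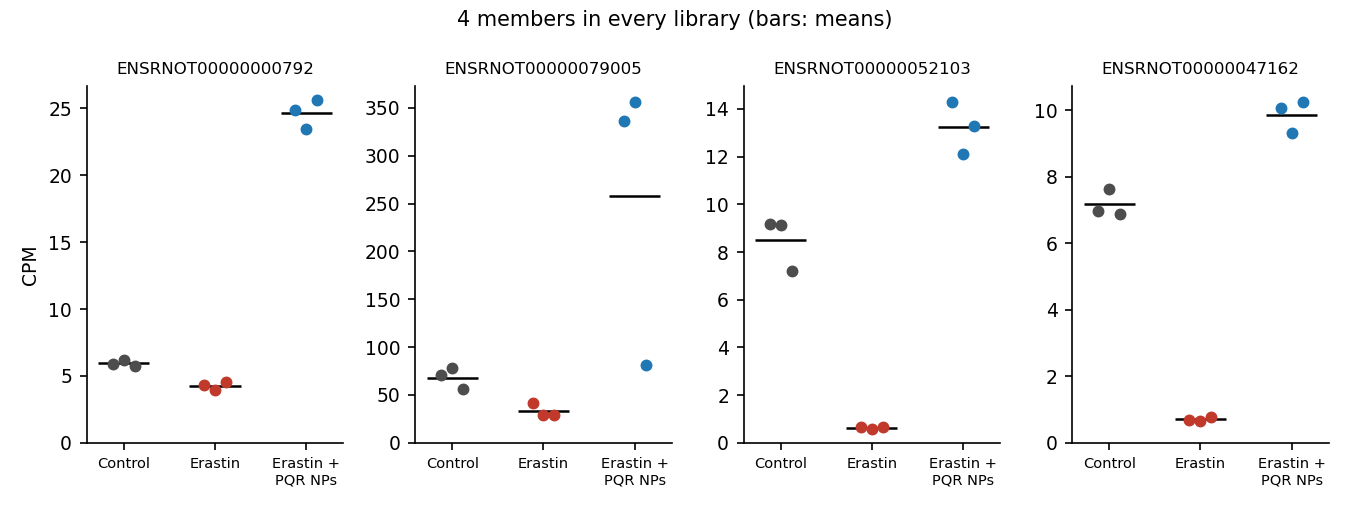
CPM in every library of the 2 members with the largest log2 ratio of co-treatment to control (left) and the 2 with the lowest log2 ratio of erastin to control (right), both with 0.5 CPM added to the means. Points are libraries and bars are means of 3, on axes that start at 0. The co-treated libraries of the second transcript split into 2 high values and 1 just above the controls.

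The 13 members 4-fold or more lower with erastin were mostly scarce transcripts. Their median control mean was 7.17 CPM, and the erastin libraries held 7 to 694 counts of them. Under co-treatment they were 1.37-fold to 3.01-fold above control and 7.83-fold to 20.8-fold above erastin. All 13 were called lower with erastin and 7 of the 13 higher than control under co-treatment. ENSRNOT00000052103, rank 138, had 345, 357 and 276 counts in controls, 25, 20 and 23 with erastin and 561, 495 and 521 under co-treatment. This was 8.51 ± 1.12, 0.635 ± 0.0554 and 13.2 ± 1.08 CPM (SD, n = 3 each), 13.4-fold lower with erastin than in controls and the deepest loss among the members. ENSRNOT00000047162, rank 145, had 262, 299 and 263 counts in controls, 26, 23 and 27 with erastin and 395, 380 and 402 under co-treatment. It was 10.1-fold lower with erastin, at 0.711 ± 0.06045 CPM against 7.17 ± 0.411 CPM in controls, and 1.38-fold above control under co-treatment at 9.87 ± 0.496 CPM (SD, n = 3 each). That excess over control was not called (edgeR adjusted p 0.104). On TMM-adjusted library sizes its log2 ratio was 0.377, under the 0.41 of the rule. By the ratio of means without the added 0.5 CPM, ranks 161 and 165 were lower still, 12.7-fold and 11.0-fold below control with erastin, and both had under 0.5 CPM in each erastin library. Only the rank 23 and rank 48 members of the 13 were above 20 CPM in controls. At rank 23 the levels were 75.6, 73.2 and 71.0 CPM in controls, 18.7, 18.2 and 10.04 CPM with erastin and 135, 130 and 127 CPM under co-treatment.

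**Figure D5:**
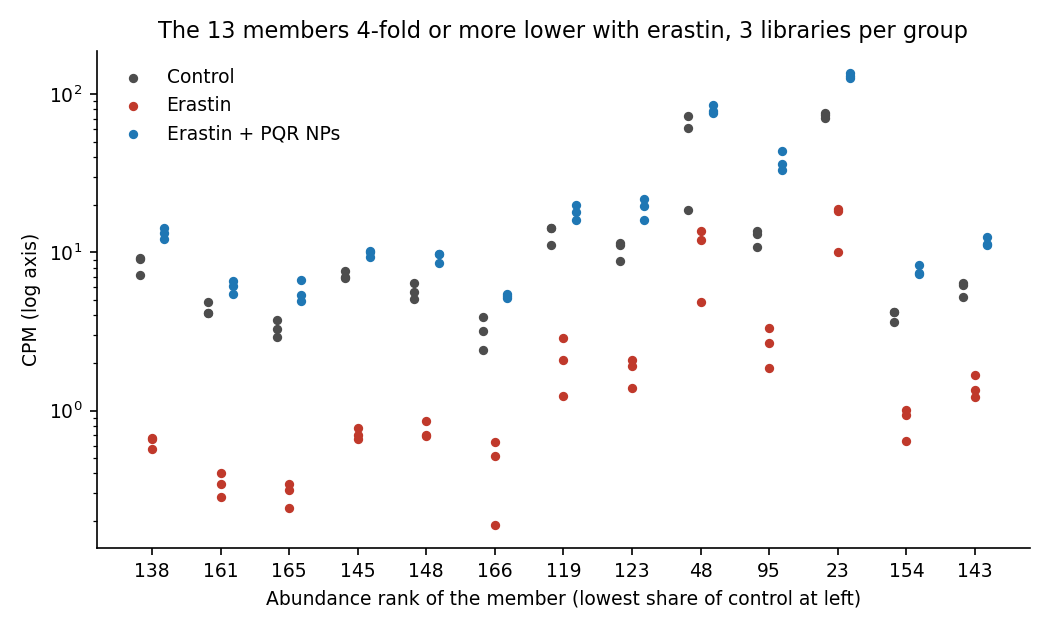
CPM on a log axis of the 13 members 4-fold or more lower with erastin, in the 3 libraries of each group, from the lowest share of control at left. Erastin points lie under 1 CPM in every library for 6 of these members, and the co-treated means lie 1.37-fold to 3.01-fold above the controls.

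The conditions on overlap favour members that are even within groups. The median coefficient of variation over 3 libraries was 9.67% for controls, 11.9% for erastin and 6.34% for co-treated libraries. The highest library was less than 1.2 times the lowest for 78 members among controls, 57 among erastin and 114 among co-treated libraries. It was 2 times the lowest or more for 1 member among controls, 7 among erastin and 1 among co-treated libraries, the last being ENSRNOT00000079005. The one in controls was rank 48, with 73.2, 60.9 and 18.5 CPM in controls, 4.84, 13.7 and 12.0 CPM with erastin and 85.3, 76.3 and 77.6 CPM under co-treatment. Its control replicate 3 lay nearer to the erastin libraries than to the other controls. Within groups, the highest and lowest values were not spread evenly over the replicates. Replicate 1 most often held the highest value of its group, for 94 of the 166 members among controls, 91 among erastin and 68 among co-treated libraries. Replicate 3 most often held the lowest, for 95, 75 and 64 members of the same groups. This was weakest in the co-treated libraries, where replicate 2 had the largest summed share and replicate 1 the lowest median CPM of the members. Among erastin libraries replicate 2 had the lowest median, so the counts do not give a common order of the libraries. They rest on CPM from total counts and were not set beside all transcripts, and their cause was not tested.

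One pair of members had nearly the same counts. Ranks 103 and 104 had 586, 613 and 546 against 560, 607 and 539 counts in controls, 321, 242 and 244 against 321, 238 and 240 with erastin, and 857, 991 and 933 against 847, 980 and 910 under co-treatment. Their ratio stayed between 1.00 and 1.05 over the 9 libraries, with an SD of 0.0183 on the log2 scale where counting error alone gives 0.0960. Whether the same reads were counted for both was not tested, so the 166 may hold 1 measurement more than once. ENSRNOT00000052103 (rank 138) and the rank 161 member also kept a closer ratio than counting error gives, 1.67 to 2.23 over the 9 libraries, with an SD of 0.156 on the log2 scale against 0.315. Shared reads were not tested there either, so their alike loss with erastin may not be 2 separate measurements. The search compared each member with all tested transcripts, for an SD under 0.5 of the counting error. With so many comparisons, pairs near that cut, ranks 138 and 161 among them, may pass it by chance. Under that cut, members also matched scarce transcripts outside the 166. One of these, with a mean count of 40, matched the members of rank 25, 42, 58 and 74.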

How the data were processed

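The authors deposited raw counts per Ensembl rat transcript, whole numbers with 1 column per library, per the file headers. HISAT2 2.2.1 and the build Rnor 6.0 are named in the submitters' processing notes; for the counting program and annotation, these sources name none. Poly(A) RNA was sequenced as paired-end reads, per the labels' protocols. They also do not tell how reads were divided among transcripts of a gene or by strand.

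CPM were computed on total counts. Calls come from the quasi-likelihood test of edgeR 4.0.16 in R 4.3.3 (TMM scaling, filterByExpr, 3 groups of 3, Benjamini-Hochberg adjustment over 17123 transcripts, adjusted p under 0.05), checked on simulated counts. DESeq2 1.42.0, other scalings and filters, and leaving out each library were alternatives. Libraries of a group were not alike within sampling noise (chi-square per degree of freedom 31.7 to 71.4).

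The members and the gene lists were chosen with earlier results of these data known. The lists could not be applied, as no ID has a name. By the naming rule, the 2 members highest in log2 co-treatment over control and the 2 lowest in log2 erastin over control, with 0.5 CPM added to the means, are printed by ID, and the 10 most abundant by rank. Other members given by rank, and the classes of size, abundance and spread, were chosen after their values were seen.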

Additional observations from a re-analysis of the deposited data

How the results depend on the processing

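The number of transcripts meeting the rule followed its thresholds and scaling. It was 352 at a fold threshold of 0.3 and 60 at 0.6, against 166, and 123 with CPM on TMM-adjusted library sizes, all of them members. The other settings gave 139 to 241 and leaving out 1 library 168 to 213. With upper quartile scaling 154 of the 164 transcripts were members. When 1 library was left out, 134 to 164 of the 166 members still met the rule, fewest without control replicate 3. All 166 kept both directions of their means under the 3 scalings. Total counts are the scaling of the rule, and the shifts of the others were small beside the fold threshold of 0.41, so this was fixed in advance. With TMM scaling the co-treated and control libraries stayed without overlap for 161 members, and control and erastin libraries for 165. With upper quartile scaling these counts were 164 and 166. The 104 members called above control were 39 at an adjusted p of 0.01, 132 with DESeq2 and 47 to 119 when 1 library was left out. Over all transcripts that comparison called 2895 in either direction, 1318 of them higher. The count in either direction was 1055 at an adjusted p of 0.01, 3971 with DESeq2 and 1325 to 2988 when 1 library was left out. The members' median log2 ratio of co-treatment to erastin was 1.29 with a pseudocount of 2 CPM, against 1.44. Every other count stayed within 1.5 times its value. The log2 ratios of the 4 members given by ID kept their signs under each scaling, pseudocount and left-out library. For pseudocounts and left-out libraries the rule fixes this, and the scalings shift the ratios too little to change it. Erastin over control was -3.55 and -2.00 for ENSRNOT00000052103 at pseudocounts of 0.1 and 2 CPM, against -2.99. For ENSRNOT00000047162 it was -3.16 and -1.76, against -2.66. For ENSRNOT00000000792 it was -0.346 at 2 CPM and -0.388 without erastin replicate 2, against -0.440 and short of -0.41. Its co-treatment over control was 2.03 and 1.74 at these pseudocounts, against 1.96.

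Libraries of different groups share replicate numbers. Deviations from the group means of same-numbered libraries correlated at -0.00372 to 0.136, with a mean of 0.0379 and above 0.1 in 2 of 9 pairs. Between libraries of other numbers they correlated at -0.111 to 0.0957, with a mean of -0.0190. These values do not decide whether the numbers pair the samples, and the labels do not state it. With the replicate block 155, 166 and 97 members were called in the 3 comparisons, against 157, 166 and 104. Over all transcripts, in either direction, the block called 8884, 8541 and 2723, against 9061, 8764 and 2895. Where an erastin library held as few as 7 counts of a member, counting error limits the precision of the fold.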
